A study of Mus musculus with 10 samples.

Results

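Gene desert peaks are stretches of accessible chromatin that lie far from every protein-coding gene. They were taken by position alone: an autosomal peak counted when its summit lay outside every protein-coding gene, more than 1 kb from both ends of every long noncoding RNA (lncRNA) gene and more than 200 kb from the nearest protein-coding gene end, in the RefSeq gene table of the mouse assembly GRCm38, the same sequence build as mm10. The deposited lists held 7451 such peaks of 104316 in deleted females, 9834 of 130103 in control females, 5704 of 88159 in deleted males and 7578 of 101322 in control males, counted on chromosomes 1 to 19, X and Y.  The nearest members inside it included a peak near Cox7c with a fold enrichment of 3.86 in deleted females, 3.65 in control females, 4.29 in deleted males and 5.02 in control males, and the nearest excluded peaks included one near AI593442 with 7.31, 7.30, 8.44 and 8.73 in the same lists.

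Chromatin was profiled by ATAC-seq, where a transposase tags open DNA with adapters for sequencing, in 10 libraries of C57BL/6 neural stem cell lines. The groups were Smchd1 del/del females (3 libraries) with their Smchd1 fl/fl controls (3 libraries), and Smchd1 del/del males (2 libraries) with their Smchd1 fl/fl controls (2 libraries). All lines came from floxed E14.5 embryos. Cre and puromycin resistance were brought in by a retrovirus, selection began at 24 h and cells were collected at day 7. The labels give this text for every library, controls included, and do not say whether control cells received a vector. The authors pooled the libraries of a group and called peaks once per group. The values below therefore have no replicate error and no p-value was computed, and the labels do not say whether libraries came from separate embryos.

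A gene desert is a long stretch between protein-coding genes. Deserts beside developmental regulators are known to hold distant enhancers that act on a gene over long ranges, while other deserts are poor in regulatory elements and lie in compact, late-replicating chromatin. SMCHD1 is a noncanonical protein of the SMC family, known for its part in silencing the inactive X chromosome, some imprinted genes and several gene clusters, and for effects on long-range chromosome contacts.

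Facts on the lists as a whole were these. They rested on 139318421 tags in deleted females, 144613215 in control females, 74674218 in deleted males and 91734730 in control males, and the tag size was 63, 53, 59 and 62 bp in that order. Smchd1 had an end peak in every list, with fold enrichments of 8.81, 8.28, 11.6 and 9.64. Which part of Smchd1 the deletion removes was not stated in the labels, so that peak does not check it. The description of the male samples calls them female, against their titles and sex field. Of 4 Y-linked genes, 3 had an end peak in each male list and 0 in each female list. Of 12 neural stem cell markers, 11 had an end peak in every list, Pax6 being without one, and of 6 microglia and blood markers 1 had one. Other cell types had end peaks too: 4 of 5 fibroblast, 3 of 5 astrocyte and 3 of 5 oligodendrocyte markers in every list. Of 10 neuron markers 8 had one, 7 in deleted males, and of 5 endothelium markers 3 had one, 1 in control males. End peaks at these markers thus do not tell the cell types apart. Because depth differed, every list was first cut to its 88159 peaks of highest deposited −log10 q. These equal-length lists held 6226 desert peaks in deleted females, 5752 in control females, 5704 in deleted males and 6144 in control males. Fold enrichment values are the authors', each peak's height relative to its surroundings, and each list has its own scale. Intervals are 95% exact binomial (Clopper-Pearson) intervals that cover counting error only.

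No genome sequence was used here, so sequence can be shown only for desert peaks over annotated microRNA genes and starts of lncRNA transcripts, taken from RefSeq tables of GRCm38.p6. The members of the Mir344 microRNA cluster are shown first, because they were the microRNA genes that desert peaks covered most. A microRNA is a short RNA that pairs with messenger RNAs chiefly through its seed, bases 2 to 8, which is in capitals below. The 3p arms of Mir344c, Mir344 and Mir344-2 shared 1 seed, those of Mir344d-1, Mir344d-2, Mir344d-3 and Mir344e shared another, and Mir344h-1 and Mir344h-2 had one of their own.
mmu-miR-344c-3p: uGAUCUAGucaaagccugacagu
mmu-miR-344-3p: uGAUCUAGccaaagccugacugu
mmu-miR-344d-3p: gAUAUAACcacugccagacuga
mmu-miR-344e-3p: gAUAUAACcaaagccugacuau
mmu-miR-344h-3p: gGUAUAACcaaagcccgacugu
mmu-miR-344b-3p: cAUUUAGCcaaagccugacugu
mmu-miR-344f-3p: cUCUAGCCaggaccugacuac
mmu-miR-802-5p: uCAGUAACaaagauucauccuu

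Of 50 microRNA genes in desert positions, 8 had their hairpin under a peak in deleted females, 8 in control females, 9 in deleted males and 8 in control males. The Mir344 cluster, on chromosome 7 between Gm51483 and the imprinted gene Ndn, gave 7, 7, 8 and 7 of these, out of 12 of its 13 genes that lie in desert positions. Of the other 38 desert microRNA genes only Mir802, on chromosome 16, lay under a peak. Mir344c (chr7:61837311-61837402) reached a fold enrichment of 12.3 among deleted females, 12.6 in control females, 14.7 in deleted males and 14.6 in control males, and ranked 204, 255, 378 and 265 in its lists. Mir344 (chr7:61877770-61877864) had 10.1, 9.60, 11.7 and 10.9 in the same order, and Mir344-2 (chr7:61940027-61940106) had 9.85, 10.2, 12.5 and 14.1. Thus the 3 genes that share the seed GAUCUAG lay under strong peaks in every list.

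The second seed group was weaker. Mir344d-2 (chr7:61685272-61685351) had 6.24, 5.71, 7.21 and 5.62 in deleted females, control females, deleted males and control males. Mir344d-3 had 2.46, 2.38, 4.44 and 3.11 and Mir344d-1 had a peak in the deposited control male list alone, with 2.63. Mir344e, Mir344h-1 and Mir344h-2 had none in any deposited list. Mir344b (chr7:61790519-61790581) had 5.75, 5.00 and 6.01 in deleted females, control females and deleted males and no peak in control males. Mir344i had 9.28, 8.57, 12.9 and 11.8, and Mir344f had 5.59, 5.71, 6.87 and 5.38. In all, 8 hairpins of the cluster had a peak in every deposited list, Mir344g, which lies too near a lncRNA end to be a desert position, included. The whole interval held 15 desert peaks in deleted females, 15 in control females, 16 in deleted males and 14 in control males. Copies of this family are alike in sequence, and how reads that match more than one copy were placed was not measured.

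Windows at starts of lncRNA transcripts are shown next, because these are bases at desert peaks that the tables hold. In 6 cases the RefSeq window, from 250 bases before to 50 after such a start, overlapped a desert peak in any list, and in 5 cases in every list. The windows shown lie inside the annotated gene, downstream of its start by 128 kb in Gm31115, 6.35 kb in Gm30524 and 12.5 kb in Gm6145. Gm31115 is printed because its rank differed most between the genotypes, and Gm30524 and Gm6145 because they were among the strongest. Capitals mark matches on either strand to 1 of 10 motifs: AGGGGGC (CTCF core), TGACTCA (AP-1), TTGGCA (NFI site), ACAAAG (SOX), CAGCTG (E-box), TAATTA (homeobox), ATGCAAA (octamer), GTTGCC (RFX site), GGAATG (TEAD) and TGACGTC (CRE).
Gm31115, chr4:64282468-64282767, plus strand: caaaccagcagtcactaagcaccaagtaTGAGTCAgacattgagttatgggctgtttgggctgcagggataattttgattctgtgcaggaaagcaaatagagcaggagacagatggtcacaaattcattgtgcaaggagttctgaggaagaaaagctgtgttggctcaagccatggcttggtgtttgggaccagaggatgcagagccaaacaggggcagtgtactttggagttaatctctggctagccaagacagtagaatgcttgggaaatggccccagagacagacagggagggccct
Gm30524, chr6:140961735-140962034, plus strand: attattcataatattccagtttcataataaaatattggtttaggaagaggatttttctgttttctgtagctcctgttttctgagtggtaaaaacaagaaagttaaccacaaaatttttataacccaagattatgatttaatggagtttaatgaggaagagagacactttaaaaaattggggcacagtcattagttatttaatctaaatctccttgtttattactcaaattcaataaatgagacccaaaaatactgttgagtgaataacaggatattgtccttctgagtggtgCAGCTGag
Gm6145, chr14:105631275-105631574, minus strand: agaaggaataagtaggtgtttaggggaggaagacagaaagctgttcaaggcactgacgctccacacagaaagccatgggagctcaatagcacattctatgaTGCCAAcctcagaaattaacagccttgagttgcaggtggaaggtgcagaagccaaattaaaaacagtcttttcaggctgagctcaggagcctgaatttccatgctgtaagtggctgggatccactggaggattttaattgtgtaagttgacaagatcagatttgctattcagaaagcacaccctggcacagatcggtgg

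The window of Gm31115 holds 1 AP-1 match, a motif found in 5.20% of all 32851 promoter windows in the table, and the match lies before the start of the peak or at its edge in each list. Fold enrichment of its peak was 4.11 in deleted females, 3.25 in control females, 5.15 in deleted males and 3.35 in control males. Its rank was 39967, 74242, 37605 and 75758 in that order, so it stood nearer the top of both deleted lists, while remaining in the control lists. Gm30524 had 7.85, 7.58, 9.54 and 9.40 and holds 1 E-box, a motif in 16.3% of windows. Gm6145 had 7.51, 7.48, 8.88 and 9.05 and holds 1 NFI site, which 14.1% of windows have. The windows had 49.0%, 30.7% and 46.0% GC and 0, 0 and 2 CpG sites, against medians of 52.7% and 7 over the table. The windows of Mir100hg and Gm31399, also at a desert peak in every list, had 53.7% and 54.7% GC and 4 and 13 CpG sites. That of Gm51502 was at a desert peak in the female lists alone, and the male peaks overlapping it were not desert peaks by the rule. A motif match is only a run of letters, and no factor's binding was measured.

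Peaks outside coding genes, desert peaks among them, thinned out with distance from genes in all lists. Within 10 kb of a coding gene end, outside coding genes, the density was 56.8 peaks per Mb in deleted females, 58.0 in control females, 58.5 in deleted males and 58.0 in control males. At 200 to 500 kb it was 17.1, 16.5, 16.0 and 17.4 peaks per Mb. Beyond 1000 kb it was 6.85, 5.32, 5.99 and 5.97, so that the deleted female list stood above the others in the emptiest territory. The bases counted there came to 71.2 Mb. Desert peaks had a median distance to the nearest coding gene end of 359, 351, 352 and 352 kb, and the farthest lay 2237, 2232, 2224 and 2243 kb away.

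**Figure D1:**
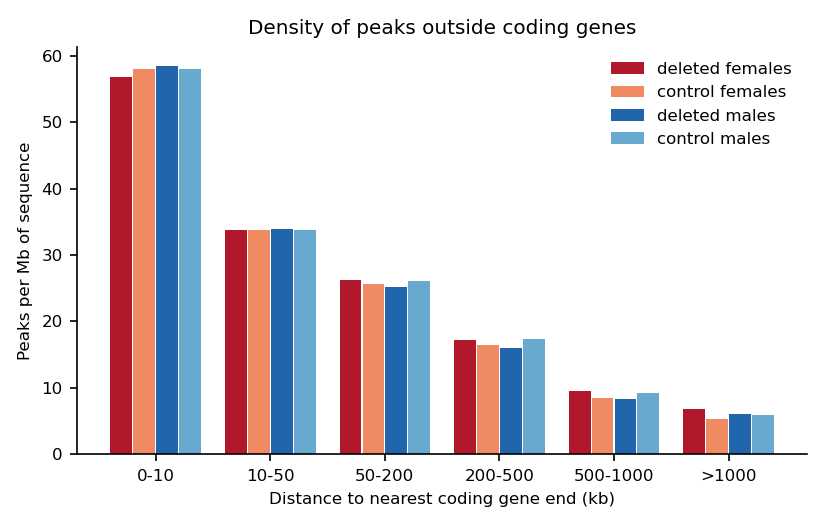
Peaks per Mb of sequence outside coding genes, in 6 classes of distance (kb) to the nearest coding gene end, for the equal-length lists of deleted and control females and males. The bars fall from 56.8 to 58.5 peaks per Mb within 10 kb of a gene to 5.32 to 6.85 beyond 1000 kb, where deleted females have the highest bar.

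By the authors' values, desert peaks resembled other distal peaks. Their median fold enrichment was 3.61 in deleted females, 4.05 in control females, 4.15 in deleted males and 4.31 in control males. Intergenic peaks 50 to 200 kb from a coding gene had 3.61, 4.13, 4.24 and 4.43, and peaks at coding gene ends had 5.06, 5.55, 6.10 and 6.35. Desert peaks were also narrow, with median lengths of 267, 309, 248 and 278 bp, against 710, 798, 610 and 687 bp at coding gene ends. Of the desert peaks, 13.9%, 15.1%, 14.1% and 14.3% lay inside the body of a lncRNA gene, and at most 1.70% lay within 1 kb of a pseudogene in any list.

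Yet the first autosomal peak of every list by −log10 q was a desert peak. It lay at chr12:97061368-97061854, 1141 kb from Galc, the lysosomal galactosylceramidase, in the desert toward Flrt2, an adhesion and guidance receptor. Its fold enrichment was 19.1 in deleted females, 19.5 in control females, 23.6 in deleted males and 20.8 in control males. By fold enrichment it was first in control females alone, the highest autosomal value being 21.0 in deleted females, 28.1 in deleted males and 26.2 in control males. Among the 10 strongest autosomal peaks by −log10 q, 4 were desert peaks in each list and 0 were at a coding gene end. Among the 100 strongest, desert peaks were 8, 9, 9 and 11, and among the 10000 strongest they made up 4.99%, 4.58%, 3.94% and 4.69%.

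The other desert peaks at the very top were likewise alike in all lists. One between Pcdh7, a protocadherin, and G6pd2, at chr5:60042667-60043150, had fold enrichments of 16.8, 16.7, 20.9 and 19.7 in deleted females, control females, deleted males and control males. One near Pex2, a peroxisome assembly factor, at chr3:5860286-5860884, had 16.0, 15.6, 18.4 and 16.9. One near Nxph1, a neurexin ligand, at chr6:9889872-9890218, had 15.6, 15.2, 20.5 and 17.3. Peaks near Csmd1, Mc2r (the corticotropin receptor) and Ajap1 had 14.1 to 20.2 over the lists, and one near Ctnna2, the neural alpha-catenin, had 11.0, 11.3, 14.0 and 12.3. How uniquely reads map at these positions was not measured.

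The 5 desert peaks farthest from a coding gene end among the stronger peaks of control females all had a peak in every list, and 4 of them are given here. At chr14:82243347-82243907, 2200 kb from Pcdh17, a protocadherin, the fold enrichment was 6.41 in deleted females, 4.84 in control females, 7.15 in deleted males and 5.62 in control males. At chr1:102628109-102628387, 2138 kb from Cntnap5b, it was 11.2, 10.3, 17.3 and 14.0. In the desert of Celf4 and Pik3c3 a peak 2193 kb from Celf4 had 4.93, 6.59, 5.72 and 8.14. A peak 2129 kb from Pcdh20 had 7.06, 8.02, 7.01 and 8.73. In the equal-length lists the peak near Pcdh17 ranked 15696 in deleted females against 38607 in control females and 21459 in deleted males against 35356 in control males, nearer the top in both deleted lists. The one near Celf4 ranked 28515 against 20519 and 32089 against 17309, in the same order, and so stood farther from the top in both.

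Presence in all 4 lists fell with strength. Over the equal-length lists, 61.5% (60.3% to 62.7%) of desert peaks in deleted females had an overlapping peak in each of the other lists, 65.8% (64.6% to 67.1%) in control females, 68.6% in deleted males and 62.3% in control males. The other autosomal peaks gave 75.2%, 73.3%, 75.7% and 74.6% in the same order. Intergenic peaks 50 to 200 kb from a coding gene lay in between, with 67.4%, 68.7%, 71.7% and 67.9%. When each list was split into 8 equal parts by rank, in the strongest part 528 of 529 desert peaks of deleted females and 487 of 487 of control females were in all lists. In the fourth part the desert share was 82.2% (79.4% to 84.8%) in deleted females, against 94.2% (92.2% to 95.9%) in control females. The other autosomal peaks there gave 94.4% and 95.8%, and intergenic peaks 50 to 200 kb from a coding gene 90.2% and 94.7%. With all peaks as deposited the share in control females was 42.9%.

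The number of desert peaks moved in opposite directions in the sexes. Relative to the other autosomal peaks, the equal-length lists held more desert peaks in deleted than in control females (log2 ratio 0.13, interval 0.08 to 0.18) and fewer in deleted than in control males (log2 ratio −0.12, interval −0.17 to −0.06). With all peaks as deposited the ratio in females turned to −0.08 and that in males was −0.23, so the direction in females depends on the length of the lists compared. Shared desert peaks that were strong in either genotype stood higher in the deleted list in 54.5% of 2944 cases in females and in 35.6% of 2833 in males. All autosomal peaks gave 46.3% and 48.2%, and intergenic peaks 50 to 200 kb from a coding gene 47.6% and 40.5%. The low value in males was thus partly shared by these intergenic peaks.

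Next, peaks strong in one genotype and missing from the other were counted. A peak was called gained when it belonged to the upper 44079 peaks of the deleted list and shared no base with the 88159 peaks kept from the control list, and lost in the reverse case. In females, 129 of 2753 desert candidates were gained, 4.69% (3.93% to 5.54%), against a background of 1.1% over all autosomal candidates. Intergenic candidates 50 to 200 kb from a coding gene gave 2.13% (1.72% to 2.61%), candidates inside coding genes 0.819% and those at coding gene ends 0.0987%. Desert peaks thus made up 27.4% of the 471 autosomal gained peaks in females and 6.45% of the candidates. Lost desert peaks in females numbered 11 of 2376, 0.463% (0.231% to 0.827%), beside a background of 0.45%.

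Males gave a lower gained share and a higher lost share, and the difference between the sexes was not tested. There, 72 of 2390 desert candidates were gained, 3.01% (2.36% to 3.78%), against a background of 0.81%, and 63 of 2508 were lost, 2.51% (1.94% to 3.20%), against a background of 1.08%. Tag size was longer in deleted than control females (63 and 53 bp) and shorter in deleted than control males (59 and 62 bp), while the gained desert share was above background in both sexes; the part of tag size and of depth in these shares was not tested. Ranked by pileup instead, the gained desert shares were 4.06% in females and 2.44% in males, with 1.23% in either sex over all candidates, and the lost desert shares were 0.543% and 1.63%, below 1.73% and 1.82% over all. With all peaks as deposited, lost desert peaks came to 231 in females and 132 in males, 6.02% and 4.51%, beside 4.43% and 2.32% over all candidates, and with an overlap of 0.5 of the candidate 90 were lost in females and 193 in males, 3.79% and 7.70%, beside 3.51% and 4.27%. The small number lost in females thus depends on these choices.

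The same rule was also applied between lists of 1 genotype. There the Smchd1 genotype is the same, but sex, depth and the number of libraries differ. Of desert candidates in deleted females, 55 of 2753 were missing from deleted males, 2.00% (1.51% to 2.59%), with a background of 0.768%. In the reverse direction it was 9 of 2390, 0.377%, with a background of 0.461%. Of those in control females, 1 of 2376 was missing from control males (background 0.112%), and of those in control males 7 of 2508 were missing from control females (background 0.0861%). Female and male lists thus differed in desert candidates more often between the deleted groups than between the controls. The deleted groups were 139318421 and 74674218 tags deep and the controls 144613215 and 91734730. The parts of sex, depth and number of libraries were not tested.

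The gained share grew with distance from coding genes. In females it was 0.428% of the candidates outside coding genes within 10 kb of a coding gene end, 1.43% at 10 to 50 kb, 2.08% at 50 to 200 kb, 4.07% (3.27% to 5.01%) at 200 to 500 kb, 5.03% (3.44% to 7.07%) at 500 to 1000 kb and 8.14% (4.52% to 13.3%) beyond 1000 kb. In males the same classes gave 0.387%, 1.18%, 1.46%, 2.51%, 3.70% and 5.15%, the last on 7 of 136 candidates. The lost share in females was 0.225%, 0.508%, 0.694%, 0.378%, 0.768% and 0% of 133 candidates in these classes, so it was higher at 50 to 200 kb than near genes and not steadily higher beyond. In males the lost share was 0.564%, 1.37%, 1.73%, 2.09%, 4.34% and 2.21%, so there it too grew with distance up to 1000 kb.

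**Figure D2:**
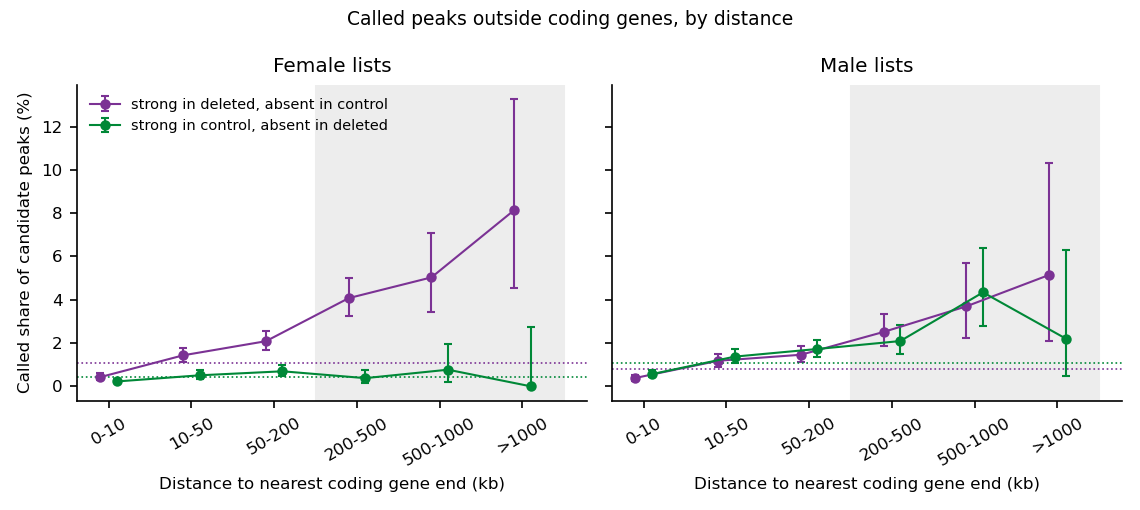
Share of candidate peaks (%) called gained (purple) or lost (green), against distance (kb) to the nearest coding gene end, for peaks outside coding genes. Error bars are 95% exact binomial intervals, dotted lines the backgrounds over all autosomal candidates, and grey marks distances over 200 kb. In females the purple points climb to 8.14% beyond 1000 kb and the green stay at or below 0.768%. In males the purple points climb to 5.15% and the green are highest, 4.34%, at 500 to 1000 kb.

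Within classes of rank the gained desert share was above that of the other autosomal candidates in the second to weakest classes of both sexes. The strongest class held too few gained desert peaks to compare, and strength within a class was not matched further. Candidates were split into 4 equal classes by rank. In females, gained desert peaks were 1 of 529 in the strongest class, 2.01% in the second, 4.33% in the third and 10.2% (8.23% to 12.5%) in the weakest, against 0.0983%, 0.301%, 0.932% and 2.12% of the other autosomal candidates. In males the desert shares were 0 of 433, 0.868%, 2.14% and 7.30% (5.52% to 9.44%), against 0.0583%, 0.128%, 0.485% and 2.08%. Intergenic candidates 50 to 200 kb from a coding gene gave 0.129%, 0.674%, 2.14% and 4.57% in females. In males they gave 0.146%, 0.513%, 0.952% and 3.79%. Their intervals overlapped the desert ones except in the weakest class, where they were 3.48% to 5.89% in females and 2.78% to 5.04% in males. Lost desert peaks in females were all in the weakest class, 1.71% there against 1.74% of the other candidates. In males they were 1.50% in the third class and 7.48% (5.65% to 9.66%) in the weakest, against 0.416% and 3.58%. Intergenic candidates 50 to 200 kb from a coding gene gave 0.703% and 5.52% (4.30% to 6.96%) lost in these classes of males. In the weakest class of females they gave 2.26%. Within the weakest class alone the gained share in females still ran from 1.43% within 10 kb of a gene to 19.2% beyond 1000 kb, that last value on 10 of 52 candidates.

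**Figure D3:**
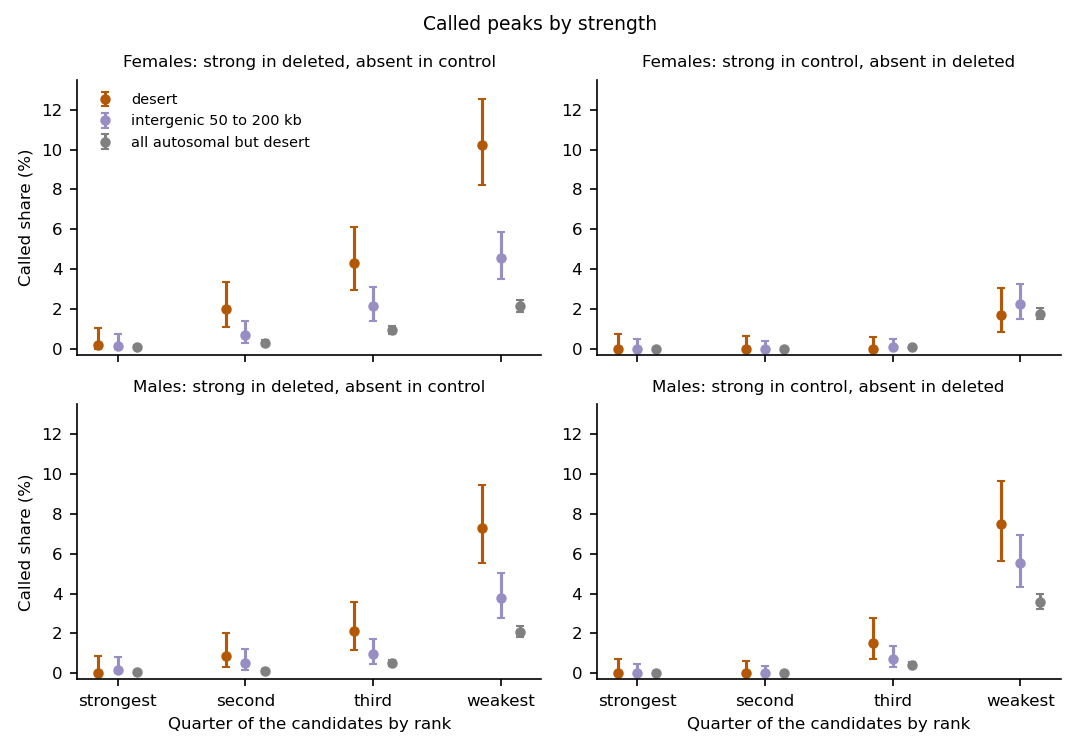
Share of candidate peaks (%) called gained (left) or lost (right) in females (top) and males (bottom), by 4 classes of rank, for desert peaks, intergenic peaks 50 to 200 kb from a coding gene and all autosomal peaks but desert. Error bars are 95% exact binomial intervals. Desert points stand above the grey ones in the second to weakest classes of both gained panels, reaching 10.2% in females, and meet them in the lost panel of females.

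In all, 35 desert peaks were gained in both sexes, 1.27% (0.887% to 1.76%) of the desert candidates of deleted females, against a background of 0.311%, and 0 were lost in both, against 0.0327%. Of intergenic candidates 50 to 200 kb from a coding gene, 31 of 4274 were gained in both, 0.725% (0.493% to 1.03%), an interval that overlaps the desert one. With all peaks as deposited the desert counts were 34 gained and 20 lost in both, at −log10 q of at least 10 they were 37 and 39, with an overlap of 0.5 of the candidate 40 and 15, and with no margin 404 and 408. The comparisons in females and males share no library. Of the 35, 29 had no overlapping peak in either full control list. They lay on 13 chromosomes, with 7 on chromosome 14, 6 on chromosome 5 and 5 on chromosome 7. Their fold enrichments ran from 3.83 to 7.88 in deleted females and from 4.25 to 8.58 in deleted males.

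The one with the best mean rank lay at chr5:119167438-119168198, between Med13l, a subunit of the Mediator kinase module, and the T-box factor gene Tbx3, 403 kb from Med13l. Its fold enrichment was 6.55 for deleted females and 7.63 for deleted males, with no peak in either control list as deposited. Another lay at chr14:109214836-109215246, 301 kb from Slitrk1, a neuronal transmembrane protein of synapses and neurite growth. It had 7.88 in deleted females, 2.94 in control females and 6.72 in deleted males, with no peak in control males, and was the strongest gained desert peak of females, at rank 8160. At chr15:15091345-15091829, 1637 kb from the cadherin gene Cdh9, a peak had 6.16 in deleted females and 6.58 in deleted males, and none was listed in either control group. Near Mtrr, methionine synthase reductase, at chr13:68257809-68258635, the values were 5.23 and 6.65, and near Tcerg1l, at chr7:137841500-137841748, 5.67 and 5.57, again with no control peak.

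The interval between Gm4868 and Tmem132c on chromosome 5 was without a desert peak in control females. It held 10 desert peaks in deleted females, 0 in control females, 4 in deleted males and 2 in control males. Of these, 3 were gained in females, 2 in males and 2 in both. The pair gained in both lay at chr5:126733488-126733848 and chr5:126764989-126765606, 508 and 477 kb from Tmem132c, a gene for a membrane protein of the TMEM132 family. Their fold enrichments were 6.80 and 5.85 in deleted females, 7.44 and 7.13 in deleted males, and no control list had a peak at either.

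The interval between the Iroquois homeobox genes Irx1 and Irx2 on chromosome 13, genes that pattern the neural tube, held 16 desert peaks in deleted females, 5 in control females, 13 in deleted males and 9 in control males. Of these, 6 were gained in females and 1 in males. At chr13:72209888-72210538, 247 kb from Irx1, the fold enrichment was 6.77 in deleted females, 2.70 in control females, 7.27 in deleted males and 3.83 in control males. At chr13:72224602-72225128 it was 6.16 in deleted females, 7.73 in deleted males and 4.07 in control males, with none in control females. Both peaks were thus present in control males at lower strength, which is why neither was called there.

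**Figure D4:**
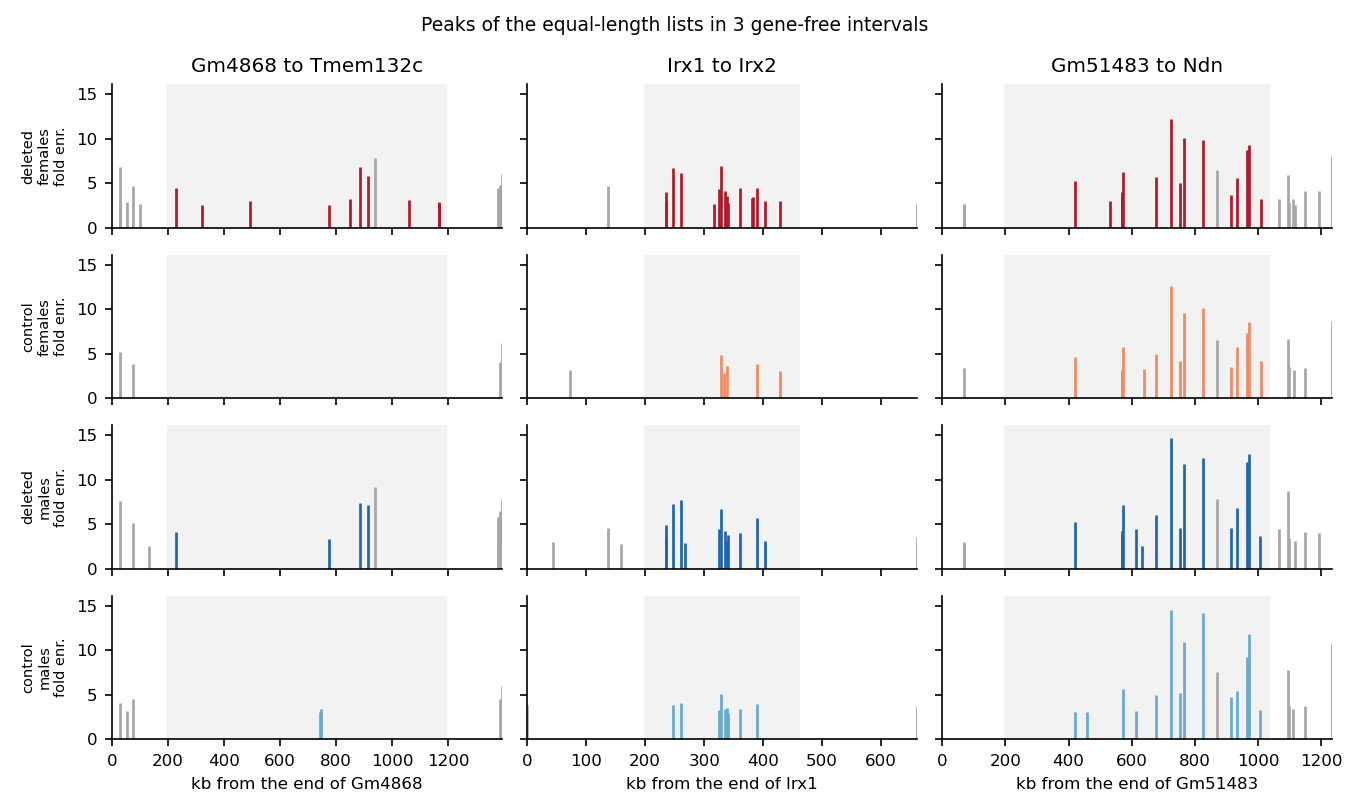
Fold enrichment of the peaks of the equal-length lists, against distance (kb) from the end of the left gene, in 3 intervals, with deleted and control females above deleted and control males. Coloured lines are desert peaks, grey lines other peaks, and shading marks sequence over 200 kb from both genes. Gm4868 to Tmem132c holds 10, 0, 4 and 2 desert peaks from top to bottom, Irx1 to Irx2 16, 5, 13 and 9, and the interval with the Mir344 cluster, Gm51483 to Ndn, 15, 15, 16 and 14.

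Other intervals with several gained peaks followed. All these were picked for their gained peaks and do not stand for deserts at large. Of 737 intervals of over 400 kb, 296 had more desert peaks in deleted than control females and 218 fewer. In males 212 had more and 308 fewer, and in both sexes 140 had more and 149 fewer. Between Gm33989 and Vstm2b on chromosome 7 there were 24 desert peaks in deleted females, 10 in control females, 21 in deleted males and 8 in control males, with 3 gained in females and 5 in males. The strongest, at chr7:39867537-39867856, reached 5.75 in deleted females and 8.58 in deleted males, with none in the controls, and was the strongest gained desert peak of males. Between 1700015G11Rik and Luzp2 the counts were 8, 2, 10 and 2, and between Got2 and the cadherin gene Cdh8 they were 25, 16, 23 and 12. Between Celf2, an RNA-binding protein gene, and Gata3, a zinc-finger factor gene, they were 25, 20, 27 and 22, with 4 gained in females and 2 in males. The peak at chr2:9412259-9412595, 445 kb from Gata3, had 5.91, 2.86, 6.44 and 4.07. The peak at chr3:17317530-17317998, 631 kb from Cypt12, had 6.90, 2.78, 7.58 and 4.07.

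The rest of the peaks with the best mean ranks in both sexes were weaker. Peaks near 4930571K23Rik, Sgcd, Tusc1, Luzp2, Tmem114, Gata3, Igfbp7, Got2 and Lingo2 had fold enrichments of 4.60 to 5.67 in deleted females and 5.01 to 6.44 in deleted males. Those near 4930571K23Rik and Got2 had a weak peak in control females, with 2.86 and 2.78, and none of the 9 had a peak in control males. The one near Igfbp7 lay 1133 kb from that gene, in the desert toward the latrophilin gene Adgrl3. The remaining 3 of the first 20 lay in antigen receptor loci, 2 in Tcra and 1 in Igh.

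**Figure D5:**
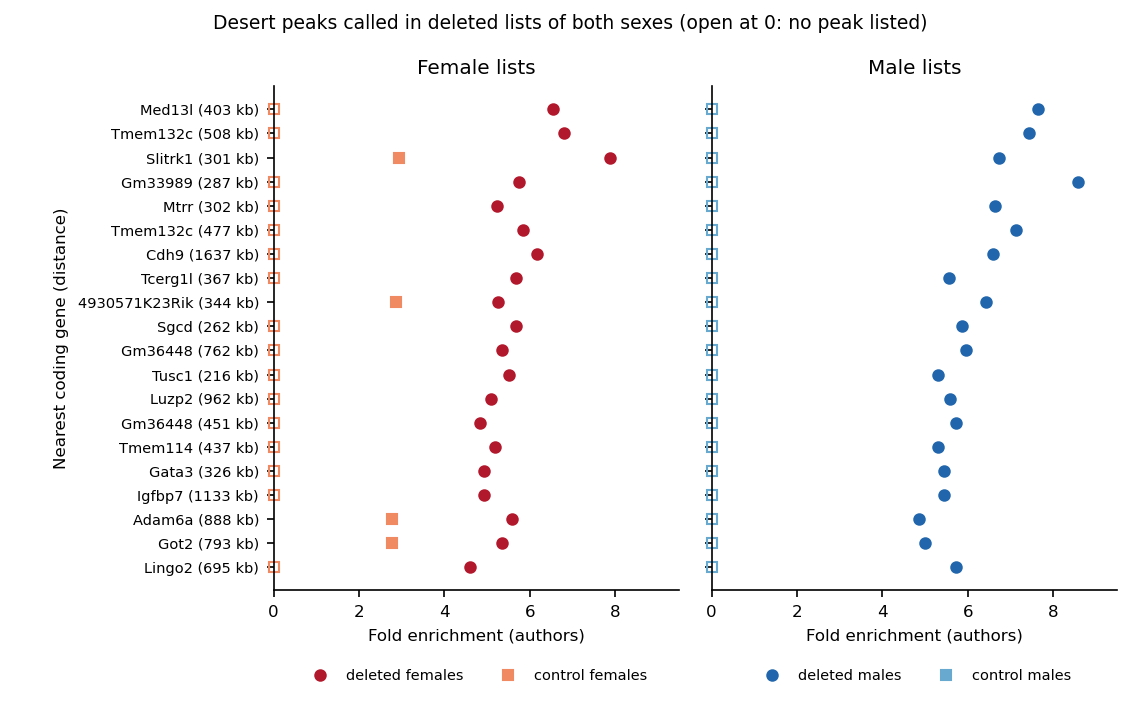
Fold enrichment, as the authors deposited it, of the 20 desert peaks gained in both sexes with the best mean rank, in deleted and control females (left) and deleted and control males (right), each row named by the nearest coding gene and its distance (kb). Open symbols at 0 mark lists with no overlapping peak as deposited. All filled circles stand at 4.60 or more, and the 4 filled squares, all in control females, at 2.78 to 2.94.

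Antigen receptor loci count as deserts here because their variable segments are not annotated as protein-coding genes. They held 124 desert peaks in deleted females, 67 in control females, 118 in deleted males and 69 in control males. Tcra, the T-cell receptor alpha locus on chromosome 14, gave 79, 43, 69 and 34 of them, Igh, the immunoglobulin heavy chain locus, 26, 12, 31 and 21, and Igk, the kappa light chain locus, 19, 12, 18 and 14. Of the gained desert peaks, 22 of 129 in females, 15 of 72 in males and 8 of the 35 in both sexes lay in these loci, and 0 of the lost ones did. Few candidates for a loss lay there, as 2357 of 2376 in females and 2485 of 2508 in males were outside these loci. The 0 lost is thus no contrast with the gained peaks. Without them the gained desert shares were 3.99% of 2684 candidates in females and 2.44% of 2338 in males, still above the backgrounds of 1.1% and 0.81%.

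Gained desert peaks were spread over many intervals, with several in some. Of 737 intervals of over 400 kb between coding genes, 86 held no desert peak in any list and 599 held one in every list. A gained peak lay in 74 intervals in females and 46 in males, 28 of them the same, and 22 intervals with 2 or more gained peaks held 73 of the 129 in females. Within 10 kb of another gained desert peak lay 16 of 129 in females and 4 of 72 in males, and within 50 kb 34 and 15. Chromosome 14 had 20 gained of 186 desert candidates in females, 15 of them in Tcra, and chromosome 5 had 12 of 131, while chromosomes 18 and 19 had 0 of 157 and 0 of 36.

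Most gained peaks had a partner in the deleted list of the other sex, but so did desert candidates as a whole. Of all desert candidates in the equal-length lists, 55 of 2753 in deleted females lacked a peak in deleted males. In deleted males 9 of 2390 lacked one in deleted females. Having such a partner was thus not particular to gained peaks. Of the 129 gained in females, 84 had no peak and 45 a weaker one in the full control female list, 114 had a peak in the full deleted male list and 43 in the full control male list. Of the 72 gained in males, 66 had no peak in the full control male list, 70 had one in the full deleted female list and 35 in the full control female list. Their median length was 298 bp in females and 242 bp in males, against 373 and 358 bp for desert candidates that were not called.

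Lost desert peaks in females were few and near the bottom of the candidates. The strongest lay at chr10:37668884-37669123, 530 kb from Marcks, a protein kinase C substrate, with no peak in deleted females and 5.08-fold enrichment in control females, 4.29 in deleted males and 4.19 in control males. The others were near Mettl15, Gria1, a glutamate receptor gene, Rbms1, Syt1, the calcium sensor of synaptic vesicles, Brinp2, Arpp21, Unc5d, a netrin receptor gene, Foxa2, Intu and Col12a1, with 4.40 to 4.92 in control females. All 11 had a peak in deleted males, with 3.00 to 4.58, and 10 had one in control males, the one near Intu being the exception. Those near Rbms1, Syt1 and Brinp2 had a weak peak in deleted females, with 2.38 to 2.46.

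Lost desert peaks in males were stronger. The first lay at chr16:76600208-76600454, 227 kb from Nrip1, a nuclear receptor corepressor gene, with no peak in deleted males, 7.30 in control males, 4.19 in deleted females and 5.87 in control females. Others that followed were near Sorcs1, a sorting receptor gene, the potassium channel gene Kcna4, Agtr1b, Oxsm, Cdh9 and Mrpl39, with 6.10 to 6.58 in control males and 3.20 to 3.94 in deleted females. Of the 63, 51 had a peak in the full deleted female list and 62 in the full control female list. The deleted male list was the shortest and shallowest, and the part of this in the lost calls was not tested.

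The desert with most peaks, between Gm36448 and Dad1, holds the Tcra locus, with 79 desert peaks in deleted females, 43 in control females, 69 in deleted males and 34 in control males. It also had the most gained ones, 15 in females, 11 in males and 6 in both. After it, the one between Adgrl2 and Adgrl4, both adhesion G protein-coupled receptor genes, had most, 48 in deleted females, 66 in control females, 42 in deleted males and 67 in control males, so both deleted lists held fewer there. The desert between Zeb2, a zinc-finger repressor gene, and Acvr2a, an activin receptor gene, had 48, 51, 48 and 56, and that between Gm15501 and the teneurin gene Tenm4 42, 36, 36 and 42. Ttll7 to Adgrl2 had 35, 40, 32 and 44, Mki67 to Mgmt 40, 38, 37 and 35, Camk1g to the semaphorin receptor gene Plxna2 33, 36, 35 and 43, and Sall3 to Galr1 42, 35, 35 and 35. These 7 after the Tcra interval held 0 gained peaks in either sex, and those of Adgrl2 to Adgrl4, Zeb2 to Acvr2a and Ttll7 to Adgrl2 lost 1 each in males.

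Desert peaks were also counted by the nearest coding gene. Of 64 neural transcription factor genes, 42 were nearest to at least 1 desert peak, with 319 in deleted females, 301 in control females, 307 in deleted males and 343 in control males. Of these, 8 of 140 candidates were gained in females and 1 of 121 in males, and 0 of 123 and 6 of 133 were lost. The shares over all desert candidates were 4.69% and 3.01% gained and 0.463% and 2.51% lost, and over all autosomal candidates 1.1%, 0.81%, 0.45% and 1.08%, in the same order. Nr2f1, a nuclear receptor gene, had 22, 19, 18 and 26 desert peaks, Zeb2 19, 21, 21 and 24, Irx1 18, 10, 17 and 13, and Sox2, a factor of neural stem cells, 13, 14, 15 and 14. Irx1 gave 4 of the 8 gained in females.

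Cell adhesion and guidance genes had more desert peaks. Of 66 genes found, 52 were nearest to one, with 597 in deleted females, 536 in control females, 508 in deleted males and 591 in control males. Gained were 11 of 251 candidates in females and 4 of 196 in males, and lost 0 of 206 and 8 of 217, to be read beside the same shares over all candidates. Adgrl2 had 46, 57, 42 and 59, Tenm4 29, 30, 25 and 34, Flrt2 22, 16, 16 and 22, Tenm3 19, 23, 13 and 20 and Ncam2, a neural adhesion molecule, 20, 18, 18 and 18, with 0 gained at these 5. Of 35 signal ligand and receptor genes, 14 were nearest to a desert peak, with 56, 46, 48 and 54, led by Chrm3, Bmp2 and Fgf9. Of these peaks, 0 of 24 candidates were gained in females and 0 of 19 in males, and 0 of 16 and 0 of 19 were lost. At the shares over all desert candidates, numbers this small would hold few calls, so the 0 says little about these genes. Olfactory receptor genes were nearest to 31, 21, 30 and 25, nearly all at Olfr161, and vomeronasal receptor and Zscan4 genes to 0.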

How the data were processed

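The 4 deposited peak lists, 1 for each group's pooled libraries, were used. Per the submitters' processing notes, the build was mm10, and the tools included Bowtie2 2.2.5 and Trim Galore 0.4.0, with no roles stated. Peaks came from MACS 2.1.0.20140616 run on 1 alignment per group, per the file headers, with reads shifted by 75 bp and extended to 150 bp at a q-value limit of 0.05. The pileup signal, the fold enrichment ratio and the −log10 q values are those the authors deposited. They described, ranked or filtered peaks within a list.

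Members, gene lists, motifs and calls were chosen with earlier results of these data known. Lists were cut to the length of the shortest by −log10 q, and overlap meant 1 bp. Peaks were named by the nearest coding gene. Named were the strongest gained and lost desert peaks of each sex, those gained in both sexes with the best mean rank, the strongest in all lists, the 5 farthest from genes among the control female candidates, the fullest intervals, up to 5 genes per list and peaks beside the 200 kb limit. Of 69 adhesion gene symbols, 66 were found in the gene table. The planned GC and motif shares of peaks were left out for want of a genome. The calling was tested on simulated copies of the control female list, with changes placed only among its strongest peaks and no difference in depth. Gained desert peaks had median ranks of 35889 in females and 37933.5 in males. The simulation thus does not show how the rule works for weak peaks or for lists of unlike depth. Alternatives changed list length, margin, overlap, ranking and the distance limit. Depth was 74674218 to 144613215 tags, so weak peaks are less certain in the male lists. Intervals treat peaks as independent and cover counting error only. Intervals came from scipy 1.17.1, tables from pandas 2.3.3 and numpy 2.4.6 under Python 3.11.15, and figures from matplotlib 3.10.9. Some named results are not reported here.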

Additional observations from a re-analysis of the deposited data

Results flagged for a closer look

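The number of desert peaks, relative to the other autosomal peaks of equal-length lists, was higher in deleted than control females (log2 ratio 0.13) and lower in deleted than control males (log2 ratio −0.12). It is listed because the sexes moved in opposite directions. Each direction rests on 1 list per group, and the difference between the sexes was not tested. With all peaks as deposited both ratios were below 0.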

How the results depend on the processing

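The number of desert peaks in females, 0.13 on the log2 scale, turned to −0.0839 with all peaks as deposited and was 0.23 with lists of 0.5 times that length, 0.19 ranked by pileup and 0.24 with a 500 kb limit. In males, −0.12, it was −0.23 as deposited and −0.0542 by pileup.

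Without a margin, gained desert peaks numbered 1555 in females, 1263 in males and 404 in both, and lost ones 1153, 1804 and 408. With the strongest 0.25 of each list as candidates, desert peaks were 15, 5 and 5 gained, and 0 lost in either sex. The gained shares were 1.22% and 0.496%, beside 0.258% and 0.112%, and 0 of all autosomal candidates were lost. As deposited, 231, 132 and 20 were lost, 6.02% and 4.51%, beside 4.43% and 2.32%. At −log10 q of at least 10 against all deposited peaks, 291, 254 and 39 were lost, 7.21% and 7.52%, beside 5.42% and 4.07%. With an overlap of 0.5 of the candidate, 90, 193 and 15 were lost, 3.79% and 7.70%, beside 3.51% and 4.27%. By pileup, 37 were lost in males, 1.63% beside 1.82%, and 23 gained and 1 lost in both. At 100 kb, 27, 101 and 2 were lost. At 500 kb, 45, 26 and 14 were gained, and 4 were lost in females and 24 in males.

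The gained share of desert over all candidates, 4.25 times in females and 3.72 in males, was 1.67 and 1.31 without a margin, 3.31 and 1.98 by pileup, and 5.31 and 5.06 at 500 kb. It was 3.46 in females at 100 kb and 2.67 in males with an overlap of 0.5 of the candidate. It stayed above 1 in each setting run. The same ratio for lost peaks was 1.03 in females and 2.32 in males. Without a margin the lost ratio was 1.18 and 1.58, in males above the gained one. By pileup the lost ratio was 0.315 and 0.895, and at 500 kb 1.40 and 3.31. An excess in deserts was thus not confined to gained peaks.

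The median fold enrichment of desert minus near intergenic peaks in deleted males, −0.09, was −0.14 at 100 kb and −0.00451 at 500 kb. The share present in all lists was 57.5% in deleted females, 58.0% in control females, 66.9% in deleted males and 57.5% in control males with an overlap of 0.5 of the peak, and 57.3%, 42.9%, 76.1% and 56.2% as deposited. Gained peaks in clusters were 34 in females and 15 in males within 50 kb. Leaving out the antigen receptor loci or chromosome-end intervals, chosen after seeing the data, gave 107 and 125 gained in females and 57 and 69 in males.

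No paired analysis was possible because each group has 1 list made from pooled libraries. Leaving out a replicate was not run for the same reason. The causes of these shifts were not tested, apart from margins, limits and overlaps that change the number of peaks compared by construction.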
